A study of Mus musculus with 16 samples.

Results

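A set of 9 macrophage genes was followed through 16 RNA libraries of mouse quadriceps: Cd68, Csf1r, Mrc1, Cd163, C1qa, C1qb, C1qc, Lyz2 and Itgam. They were chosen by name as markers of macrophages, as 9 of the 19108 gene symbols with values in every library, and all 9 had enough counts to be among the 13666 genes tested. The libraries fall into 4 groups of 4, namely transgenic (Tg) females, wild-type (WT) females, Tg males and WT males. Tg mice have the genotype ANT1(Tg)/+, an extra Ant1 gene (now Slc25a4, the mitochondrial ADP/ATP carrier of muscle). All mice were C57BL/6, aged 6 months and fed regular chow, with littermate controls where possible. The labels name neither the promoter that drives the transgene nor the number of transgenic lines. The question was whether these transcripts differed between Tg and WT muscle, and whether they varied together from library to library.

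Macrophages of skeletal muscle live in the connective tissue between fibres and around vessels, where they clear debris and take part in repair after injury. Their survival depends on signalling through the receptor that Csf1r encodes. They take up glycoproteins and haemoglobin through surface receptors such as those encoded by Mrc1 and Cd163, digest cargo in lysosomes with lysozyme, and secrete complement C1q, which tags cells and debris for removal. The muscle fibre itself does not make these proteins in quantity, but neutrophils and monocytes also express Lyz2 and Itgam. In a whole-muscle extract their transcripts are therefore read from a small cell population, and a smaller number of macrophages and less transcript per macrophage cannot be told apart.

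Messenger RNA was sequenced from stranded libraries made with poly(A) selection, and values are given in counts per 1000000 (CPM), computed from the deposited counts after scaling by trimmed mean of M-values (TMM). Total counts per library were 17435895 to 30680324, and 3 counts corresponded to 0.101 to 0.165 CPM. The transgene was checked first: Slc25a4 stood at 8510 to 11000 CPM in the Tg libraries and at 2790 to 3920 CPM in the WT libraries, so every library matched its genotype label. The tissue label was checked with fibre genes, of which Myh4, the myosin heavy chain of the fastest fibres, stood at 49600 to 84800 CPM in Tg and at 60900 to 108000 CPM in WT libraries. The labels do not tie each library to a named animal, so p-values measure the spread between these libraries.

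Taken as a sum, the 9 transcripts made up 50.2 to 257 CPM in the 8 Tg libraries (median 111) and 89.8 to 280 CPM in the 8 WT libraries (median 170). This is 0.00502% to 0.028% of all normalised counts. The lowest sum, in Tg female 1, rested on 1383 counts and the highest number of counts, in Tg male 3, was 6763. Between libraries of the same group the differences were large. The standard deviation of log2 CPM within groups was 0.556 for Cd68 to 0.821 for Cd163, against a median of 0.200 over all tested genes. The biological coefficient of variation of the 9 genes was 0.337 to 0.519, against a median of 0.143.

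Levels per kilobase of exon put the 9 genes in order. Lyz2 was the most abundant at 36.1 ± 15.4 CPM per kb (SD, n = 16), followed by C1qb at 13.9 ± 6.58 and C1qa at 13.8 ± 6.83 CPM per kb. The C1qb and C1qa levels could not be ordered, since C1qb was the higher in 7 of 16 libraries. C1qc followed at 7.65 ± 3.17 CPM per kb, and then came Csf1r at 3.51 ± 1.51, Cd163 at 2.87 ± 1.81, Mrc1 at 2.81 ± 1.35 and Cd68 at 2.71 ± 1.14 CPM per kb. Of these last neighbours, Csf1r was above Cd163 in 14 libraries, Cd163 above Mrc1 in 8 and Mrc1 above Cd68 in 10. Itgam was the least abundant at 0.607 ± 0.368 CPM per kb, below Cd68 in all 16 libraries.

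The promoters of C1qb, C1qc and Cd68 are shown because the C1q chains, neighbours on the chromosome, varied closely together, while Cd68 followed the other members least closely. Close variation was not particular to neighbours, since Csf1r and Lyz2, on different chromosomes, were the closest pair. C1qb, C1qc and C1qa lie in a row on the minus strand of chromosome 4, with 3616 bases between C1qb and C1qc and 2851 bases between C1qc and C1qa. RefSeq windows on build GRCm38.p6 were matched for 7 of the 9 genes, all but C1qa and Csf1r. The 250 bases before each transcription start were searched on both strands for GAGGAA, the core of the sequence bound by the myeloid factor PU.1 (Spi1). Capitals mark the match, written as TTCCTC where it lies on the opposite strand. The windows are chr4:136886201-136886450, minus strand, for C1qb, chr4:136892915-136893164, minus strand, for C1qc, and chr11:69666171-69666420, minus strand, for Cd68.
C1qb: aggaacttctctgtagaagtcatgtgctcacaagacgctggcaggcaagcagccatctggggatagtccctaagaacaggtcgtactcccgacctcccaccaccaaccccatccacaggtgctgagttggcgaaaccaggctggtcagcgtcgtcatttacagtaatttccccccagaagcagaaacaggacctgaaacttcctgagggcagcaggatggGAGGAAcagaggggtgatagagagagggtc
C1qc: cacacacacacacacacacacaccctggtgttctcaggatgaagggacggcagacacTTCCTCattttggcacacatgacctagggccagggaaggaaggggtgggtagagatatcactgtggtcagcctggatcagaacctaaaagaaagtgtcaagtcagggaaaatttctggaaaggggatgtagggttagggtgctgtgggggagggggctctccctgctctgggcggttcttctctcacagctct
Cd68: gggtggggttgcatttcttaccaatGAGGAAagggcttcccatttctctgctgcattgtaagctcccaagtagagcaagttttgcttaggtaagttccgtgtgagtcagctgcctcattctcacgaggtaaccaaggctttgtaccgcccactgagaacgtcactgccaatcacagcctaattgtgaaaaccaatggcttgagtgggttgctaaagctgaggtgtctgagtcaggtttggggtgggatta
The match lay at bases -30 to -25 from the start in C1qb, at -193 to -188 in C1qc and at -225 to -220 in Cd68. These positions count from the RefSeq start. The C1qc window reaches into the gene as GENCODE places it (136889804 to 136893065), so the C1qc position depends on the annotation. Matches were also present in Mrc1 (3) and Itgam (2) and not in Cd163 or Lyz2, so that 5 of 7 windows held the motif, against 23.3% of all 32851 mouse windows of the same length. The longer form GAGGAAGT, which contains the shorter motif, was found only in C1qc among the 7 windows and in 2.44% of all windows. A letter match is a description of the sequence and not evidence of a bound site.

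Across both sexes, none of the 9 transcripts passed the threshold between Tg and WT muscle, although 30.4% of all tested genes did. The test was edgeR's quasi-likelihood F test on the mean of the female and male differences, with Benjamini-Hochberg adjustment over 13666 genes and a threshold of 0.05, and 0 of the 9 members had an unadjusted p under 0.05, against 40.3% of tested genes. The estimated log2 fold changes were below 0 for 8 genes and above 0 for Cd68, with a median of -0.48, against a median of -0.01 over all tested genes, of which 51.7% were below 0. The range was -0.80 for Cd163 to 0.15 for Cd68, with adjusted p of 0.139 to 0.686. DESeq2 also called 0 of the 9, and 28.1% of the genes it tested. Leaving out Tg male 3, the Tg library with the highest summed level, brought C1qa (-0.78, adjusted p = 0.0465) and Itgam (-0.998, adjusted p = 0.0212) past the threshold in edgeR, in a fit that called 29.2% of tested genes.

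**Figure D1:**
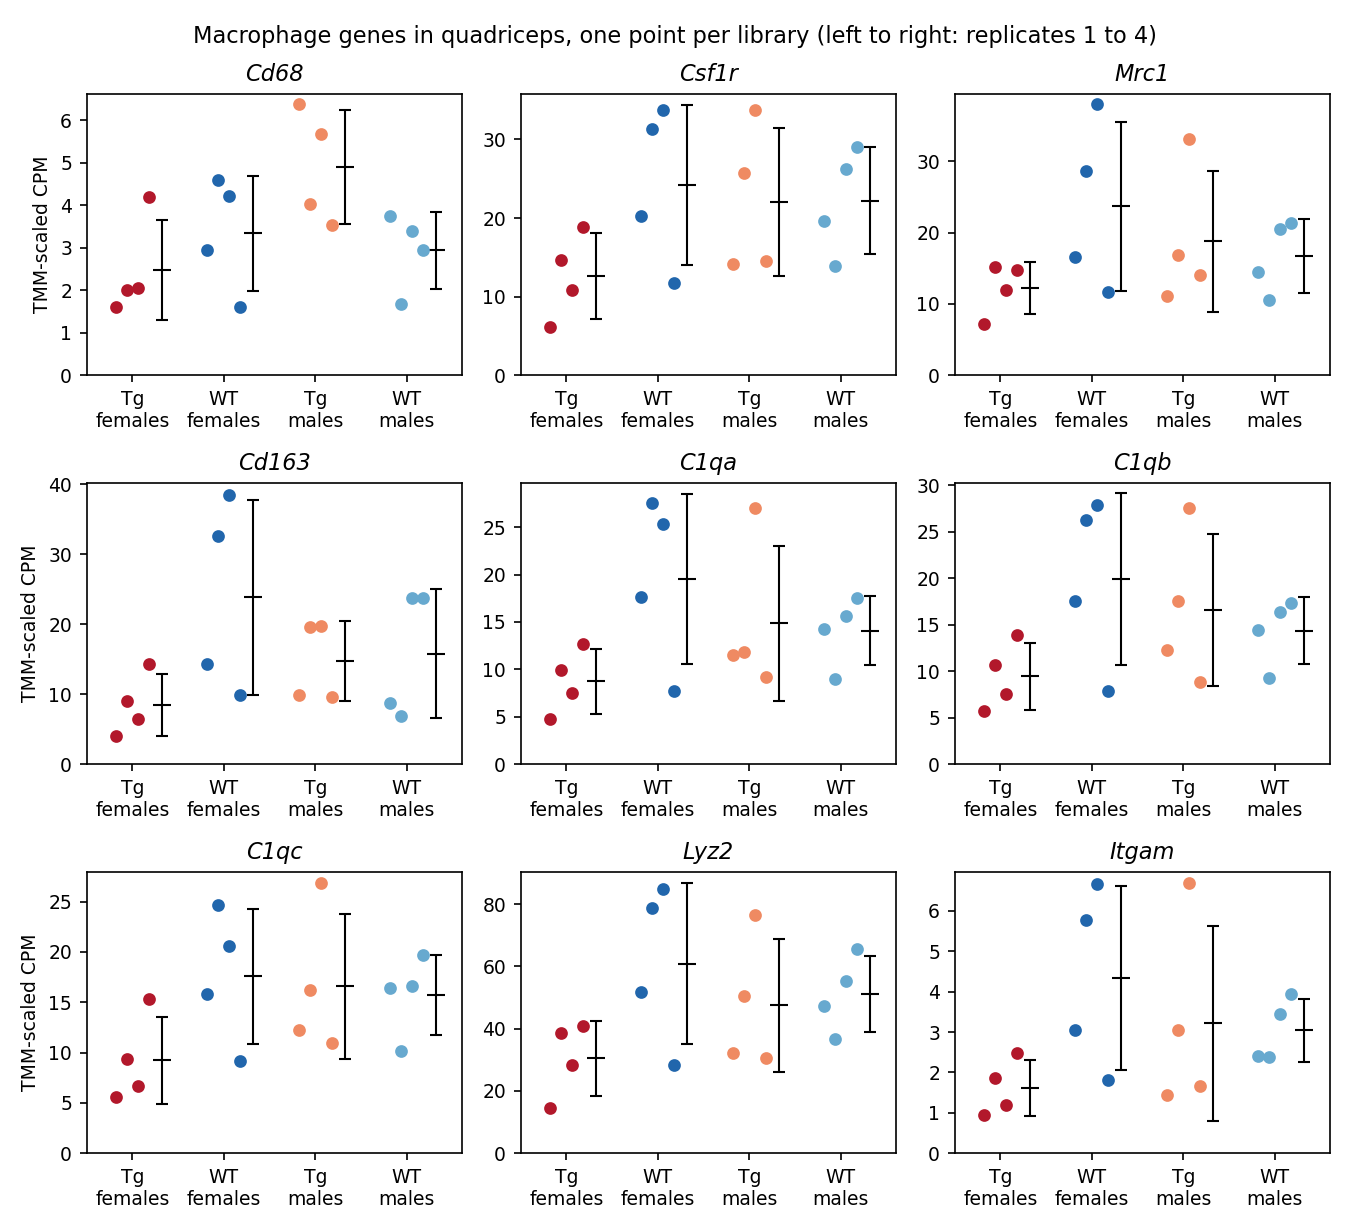
Level of each of the 9 macrophage transcripts in every library, in CPM on a linear axis from 0, with 1 point per library and, right of the points, the group mean ± SD (n = 4), Tg left of WT within each sex. For all 9 transcripts the Tg and WT points overlapped in both sexes, which describes the panels only, since overlap was not counted over all tested genes. Tg female 1 is the lowest point, level with WT female 4 at 1.60 CPM in the Cd68 panel.

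Csf1r, on chromosome 18 (61100598 to 61132149, plus strand, mm10), encodes the tyrosine kinase receptor for the growth factors CSF1 and IL-34. Its level was 6.10, 14.6, 10.9 and 18.9 CPM in Tg females 1 to 4, against 20.2, 31.3, 33.7 and 11.7 CPM in WT females 1 to 4. Among males it was 14.2, 25.7, 33.7 and 14.5 CPM in Tg, against 19.6, 13.9, 26.2 and 29.1 CPM in WT. Tg females 1 and 3 were below all WT females, while the male groups covered nearly the same range. The log2 fold change was -0.95 in females (SE 0.41, adjusted p = 0.130) and -0.01 in males (SE 0.41, adjusted p = 0.991). Csf1r overlaps Hmgxb3 on the opposite strand; Hmgxb3 stood at 22.6 to 29.5 CPM in Tg and 22.2 to 27.9 CPM in WT libraries, a narrower range than that of Csf1r.

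Cd163, on chromosome 6 (124304656 to 124330527, plus strand), encodes the receptor that takes up haemoglobin bound to haptoglobin and is typical of resident macrophages. Tg females 1 to 4 had 4.03, 9.08, 6.39 and 14.3 CPM, against 14.3, 32.6, 38.5 and 9.87 CPM in WT females. Tg females 1 to 3 were below every WT female. In males the levels were 9.91, 19.6, 19.8 and 9.58 CPM in Tg, against 8.69, 6.91, 23.8 and 23.7 CPM in WT, so that all Tg males lay inside the WT range. The log2 fold change of -1.499 in females (SE 0.56, adjusted p = 0.0799) was the most negative of the 9 members and missed the threshold. In males it was -0.10 (SE 0.54, adjusted p = 0.937).

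Mrc1, on chromosome 2 (14229392 to 14332057, plus strand), encodes the mannose receptor, which binds glycoproteins and collagen fragments. It averaged 12.3 ± 3.70 CPM in Tg females and 23.7 ± 11.9 CPM in WT females, and 18.8 ± 9.86 CPM in Tg males and 16.7 ± 5.15 CPM in WT males (SD, n = 4 each). The highest Tg female stood at 15.2 CPM and the lowest WT female at 11.7 CPM, so the groups overlapped. The log2 fold change was -0.95 in females (SE 0.42, adjusted p = 0.129) and 0.17 in males (SE 0.41, adjusted p = 0.850).

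The C1q chains build the recognition subunit of complement C1, and each C1q molecule needs all of them. C1qa (chromosome 4, 136895917 to 136898803) had 4.76, 9.94, 7.51 and 12.7 CPM in Tg females, against 17.6, 27.6, 25.3 and 7.72 CPM in WT females. In males it had 11.5, 11.8, 27.0 and 9.18 CPM in Tg, against 14.3, 8.96, 15.6 and 17.5 CPM in WT. WT female 4 lay inside the Tg female range, and Tg male 3 stood far above the other Tg males. C1qb (136880129 to 136886187) had 5.67, 10.7, 7.58 and 13.9 CPM in Tg females, against 17.6, 26.3, 27.9 and 7.83 CPM in WT females. Its levels in males were 12.3, 17.6, 27.6 and 8.84 CPM in Tg, against 14.4, 9.29, 16.4 and 17.4 CPM in WT. In each group the lowest library was the same as for C1qa. C1qc (136889804 to 136893065) averaged 9.23 ± 4.36 CPM in Tg females and 17.6 ± 6.67 CPM in WT females, and 16.6 ± 7.19 CPM in Tg males and 15.7 ± 3.94 CPM in WT males (SD, n = 4 each). In females the log2 fold changes were -1.17 for C1qa (SE 0.43, adjusted p = 0.0770), -1.08 for C1qb (SE 0.42, adjusted p = 0.0941) and -0.93 for C1qc (SE 0.38, adjusted p = 0.105). In males they were 0.08, 0.20 and 0.08, with adjusted p of 0.815 to 0.939.

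Cd68, on chromosome 11 (69664213 to 69666153, minus strand), encodes macrosialin, a glycoprotein of lysosome and endosome membranes. Tg females had 1.60, 2.01, 2.04 and 4.20 CPM, against 2.95, 4.58, 4.22 and 1.60 CPM in WT females. Tg males had 6.37, 4.02, 5.66 and 3.54 CPM, against 3.74, 1.67, 3.40 and 2.94 CPM in WT males. In males, 3 of 4 Tg libraries were above every WT library for Cd68, 2 for C1qb and at most 1 for the other members. How often this occurs over all tested genes was not counted. The log2 fold change was 0.74 in males (SE 0.35, 95% interval -0.002 to 1.48, unadjusted p = 0.0505, adjusted p = 0.169) and -0.44 in females (SE 0.36, adjusted p = 0.419), and neither passed the threshold.

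Lyz2, on chromosome 10 (117277331 to 117282321, minus strand), encodes lysozyme M, which cleaves bacterial cell walls. It had 14.5, 38.5, 28.2 and 40.8 CPM in Tg females, against 51.8, 78.7, 84.7 and 28.4 CPM in WT females. Tg males had 32.3, 50.5, 76.4 and 30.7 CPM, against 47.2, 36.8, 55.3 and 65.5 CPM in WT males. Only WT female 4 reached down into the range of the Tg females, and in males the Tg libraries lay on both sides of the WT range. The log2 fold change was -1.001 in females (SE 0.40, adjusted p = 0.102) and -0.11 in males (SE 0.40, adjusted p = 0.904). Reads of Lyz2 and of its near-identical neighbour Lyz1 may have been divided between them in the authors' counting, so the Lyz2 level is uncertain. Lyz1 had 0.267 to 0.485 of the Lyz2 count in the 16 libraries, and its log2 fold change across the sexes was -0.55 (SE 0.26, adjusted p = 0.126).

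Itgam, on chromosome 7 (128062640 to 128118491, plus strand), encodes the alpha-M chain of an integrin of myeloid cells that binds complement-coated particles. Tg females had 0.944, 1.86, 1.19 and 2.47 CPM, against 3.05, 5.78, 6.67 and 1.82 CPM in WT females. Tg males had 1.45, 3.05, 6.68 and 1.67 CPM, against 2.41, 2.38, 3.44 and 3.95 CPM in WT males. The range of the Tg males enclosed that of the WT males. The log2 fold change was -1.43 in females (SE 0.50, adjusted p = 0.0633), the smallest adjusted p of the 9, and 0.08 in males (SE 0.48, adjusted p = 0.945).

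**Figure D2:**
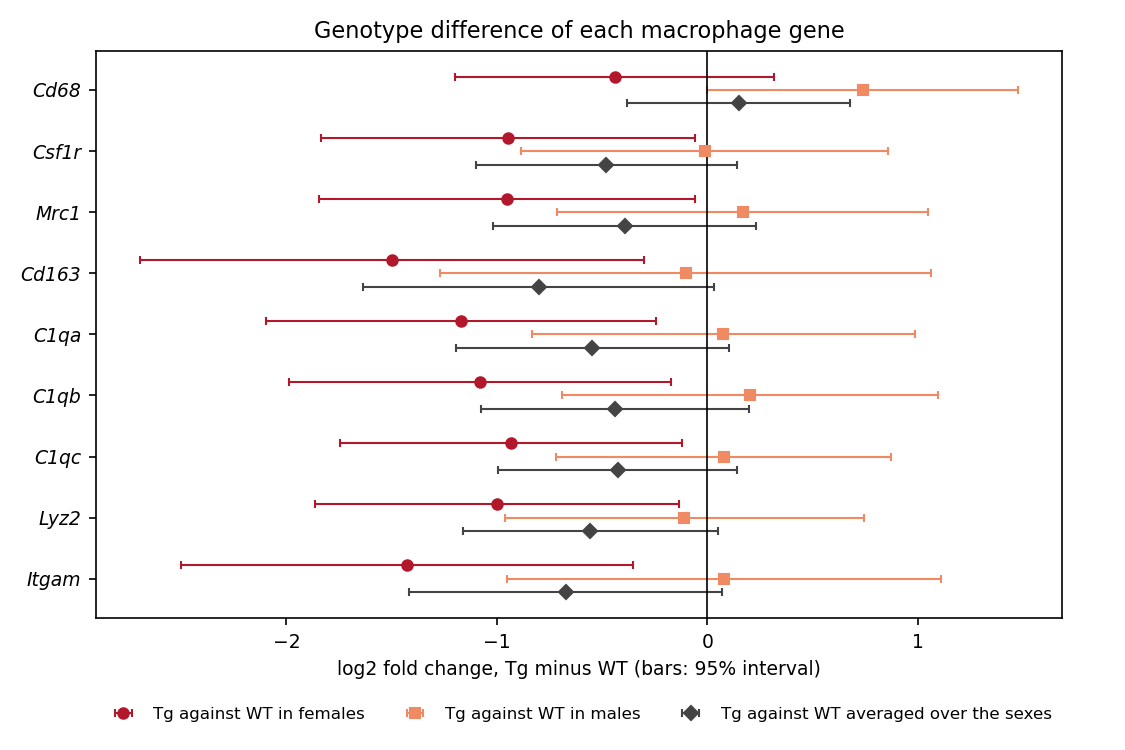
Estimated Tg minus WT log2 fold change of each member with its 95% interval from edgeR's quasi-likelihood fit, in females, in males and averaged over the sexes. All 9 female estimates are below 0, from -1.499 to -0.439, and the male estimates lie between -0.11 and 0.74, but no member passed the adjusted threshold in either sex.

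Within females, then, all 9 estimates were negative, with a median of -1.001, and 8 of 9 (all but Cd68) had an unadjusted p under 0.05, as did 32.2% of all tested genes. None of the 9 passed the adjusted threshold in edgeR, against 17.7% of all tested genes, and the smallest adjusted p was 0.0633. This count depended on the method and on single libraries. DESeq2 called 5 members, all lower in Tg females, and 18.9% of the genes it tested (C1qa with adjusted p = 0.0173, Itgam with 0.0192, C1qb with 0.0274, Cd163 with 0.0371 and C1qc with 0.0395). Without WT female 4, which was the lowest WT female for all 9 members, edgeR called 6 (those 5 and Lyz2), and 22.8% of tested genes. Without Tg male 3 it called C1qa and Itgam, and 16.8% of tested genes. Without Tg female 4 it called C1qc, and 15.7% of tested genes. Markers of other cells had female medians of -1.33 for 10 adipocyte genes (0 called, 0 with an unadjusted p under 0.05), -0.62 for 10 fibroblast genes (1 called lower, 5 with an unadjusted p under 0.05) and 0.035 for 10 endothelial genes (0 called). With the adipocyte marker level as a covariate, 0 of 9 members and 18.9% of tested genes were called in females. The 9 members rise and fall together between libraries, so their shared sign is not 9 separate observations.

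Within males, 0 of 9 members passed, against 18.2% of all tested genes, and 0 of 9 had an unadjusted p under 0.05, against 29.7%. The estimates were above 0 for 6 members and below 0 for 3, with a median of 0.08. Tg male 3 was the highest Tg male for 8 members, and WT male 2 was the lowest WT male for all 9.

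The difference between the sexes was tested directly as the male minus the female genotype effect. All 9 estimates were above 0, from 0.89 for Lyz2 to 1.504 for Itgam, with wide intervals such as 0.12 to 2.24 for Cd68. None passed the threshold (adjusted p of 0.634 to 0.768), against 0.00732% of all tested genes, which is 1 gene. Cd68, C1qb and Itgam had an unadjusted p under 0.05 (0.0316, 0.0481 and 0.0477), and 7.43% of all tested genes did. A different genotype effect in the sexes was thus not shown for any member.

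Between the sexes themselves, with both genotypes averaged, no member passed the threshold (adjusted p of 0.430 to 0.944), against 4.43% of all tested genes, and 0 of 9 had an unadjusted p under 0.05, against 17.5%. The male minus female log2 differences were 0.06 for Mrc1 to 0.41 for Cd68. Within Tg they were 0.62 to 1.01, and 0 of 9 passed, against 0.527% of tested genes. Cd68 and C1qc had an unadjusted p under 0.05 there, as did 9.41% of tested genes. Within WT the differences were -0.59 to -0.12, and 0 of 9 passed, against 3.67% of tested genes, with 0 of 9 at an unadjusted p under 0.05, against 16%.

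From library to library the 9 transcripts varied together. After the group means were removed from log2 CPM, all 36 pairs of members were positively correlated over the 16 libraries, with Pearson's r of 0.607 to 0.984 (median 0.916) and Spearman's rho of 0.585 to 0.979. All 36 passed a permutation test that shuffled libraries within groups (100000 permutations, Benjamini-Hochberg adjusted over 36 pairs, p = 9.6e-05 to 0.0241 for r). The closest pair was Csf1r and Lyz2 with r = 0.984 and rho = 0.976. The 3 pairs of C1q chains had r of 0.960 to 0.971. Shared library scaling enters all of these values.

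Cd68 followed the others less closely. Its 8 pairs had r of 0.607 with Itgam to 0.823 with C1qa, while the 28 pairs without Cd68 had r of 0.829 to 0.984. Against the mean of the other 8 members, Cd68 had r = 0.751 and the other members had 0.898 (Cd163) to 0.980 (C1qb). Within genotypes, r was 0.374 to 0.984 among the 8 Tg libraries and 0.741 to 0.995 among the 8 WT libraries, and the lowest Tg value was that of Cd68 with Mrc1. When the 2 libraries farthest from the median of the first gene of a pair were left out, r was 0.752 to 0.974 for the pairs without Cd68, and all 28 passed. The pairs with Cd68 then had r of 0.339 to 0.676, and 6 of the 8 no longer passed, so those relations rest on Tg female 4 and WT female 4, though not on them alone. Without WT female 1, WT female 2 and WT male 1, the 3 libraries richest in adipocyte RNA, Cd68 also did not pass with Mrc1, Lyz2 and Itgam (r of 0.678, 0.711 and 0.643, adjusted p of 0.0705, 0.0542 and 0.0700). Without removing group means, r was 0.543 to 0.982 over the 36 pairs.

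**Figure D3:**
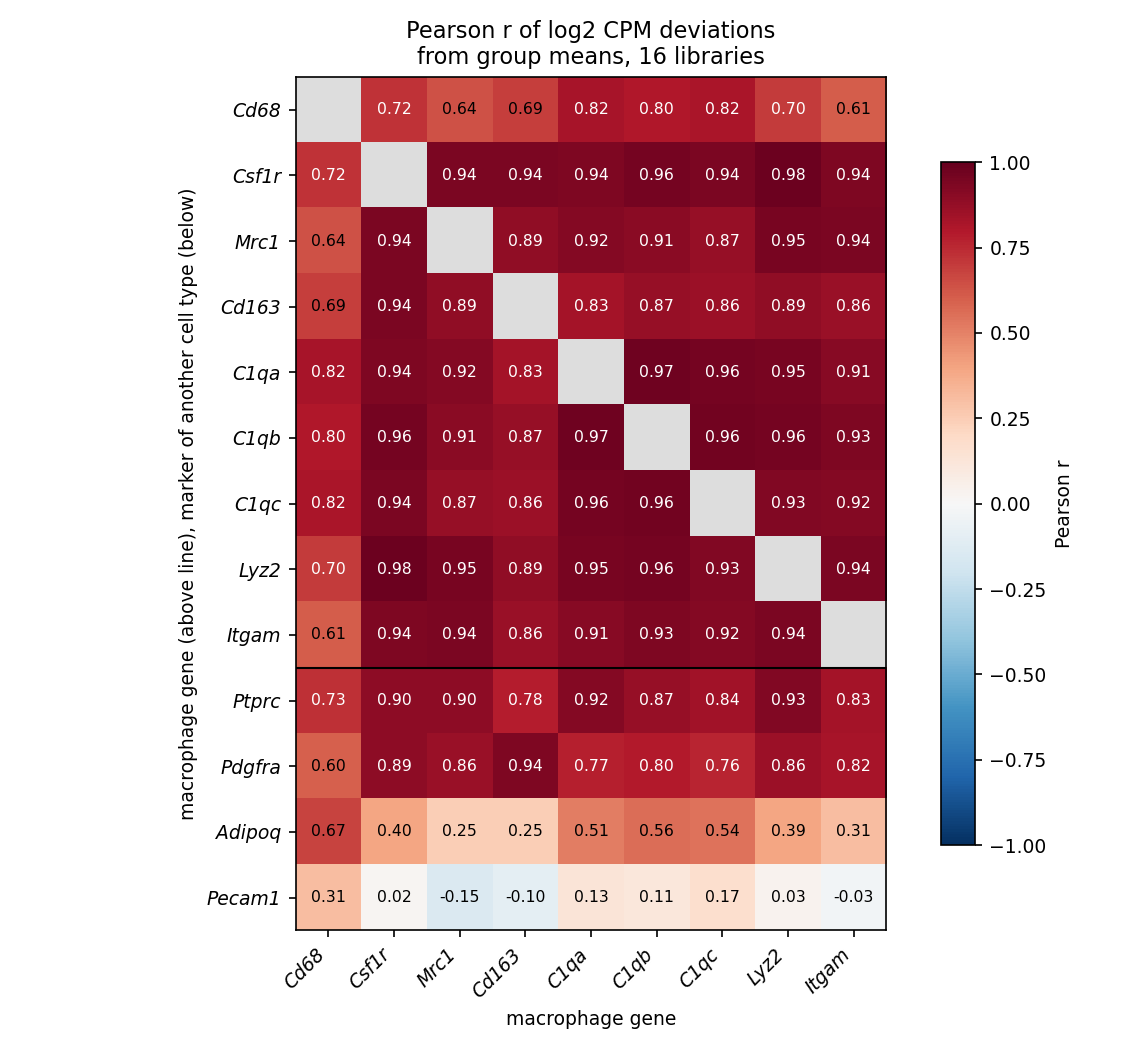
Pearson's r of log2 CPM deviations from group means for the 36 pairs of members over 16 libraries, as a coloured grid with the value in each cell, and below the line for each member with Ptprc, Pdgfra, Adipoq and Pecam1. Among members, the row and column of Cd68 hold the lowest values, 0.607 to 0.823, and the remaining pairs lie between 0.829 and 0.984.

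The same libraries stood at the ends of the range for nearly every member. Tg female 1 was the lowest of all 16 for all 9 members. WT female 2 was among the 3 highest for all 9, and WT female 3 and Tg male 3 for 8 each. Each of the 4 groups except the Tg males had 1 library that was its lowest for all 9 members, namely Tg female 1, WT female 4 and WT male 2.

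Ratios within a library show which transcripts kept their proportion. C1qa to C1qb was 0.670 to 1.04 in Tg libraries and 0.908 to 1.05 in WT libraries, with a standard deviation of 0.154 on the log2 scale. Cd68 to Lyz2 was 0.0522 to 0.197 in Tg libraries (median 0.0914) and 0.0449 to 0.0793 in WT libraries (median 0.0566), with a standard deviation of 0.581 on the log2 scale. These ratios were picked after their values were seen and were not tested.

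**Figure D4:**
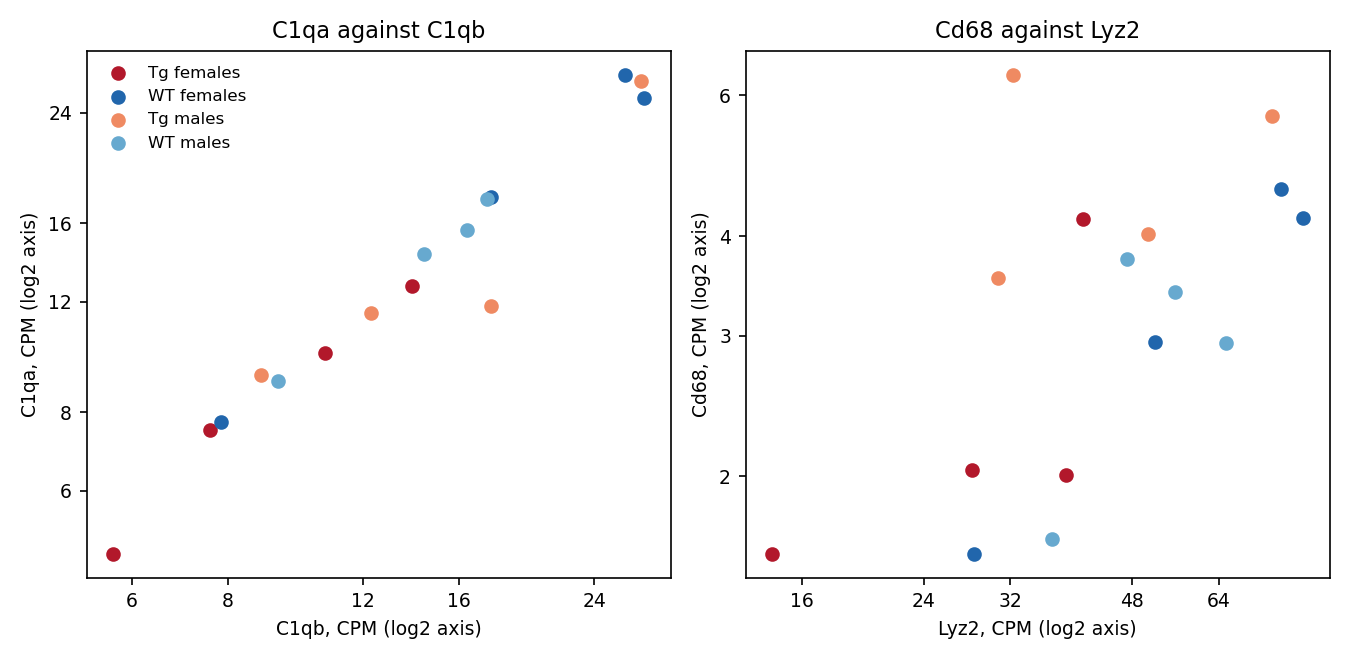
Levels of C1qa against C1qb (left) and of Cd68 against Lyz2 (right) in the 16 libraries, in CPM on log2 axes, with 1 point per library coloured by group. The C1q points lie close to a line with 1 Tg male below it, where C1qa was 0.670 of C1qb, and the highest Cd68 points, at 6.37 and 5.66 CPM, are Tg males.

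The 10 genes outside the set whose profile was most like the mean of the 9 members over the 16 libraries, by Pearson's r on deviations from group means, were F13a1 (0.984), Emilin2 (0.983), Folr2 (0.983), Pla1a (0.980), Adgrd1 (0.978), Pf4 (0.978), Ccl24 (0.976), C1qtnf1 (0.975), Fcgr2b (0.974) and Adgre1 (0.971). F13a1 encodes the A chain of coagulation factor XIII, Folr2 a folate receptor, Pf4 platelet factor 4, Ccl24 a chemokine, Fcgr2b the inhibitory IgG receptor and Adgre1 the F4/80 antigen. Emilin2, Pla1a, Adgrd1 and C1qtnf1 are in none of the gene lists used here. A close match was not particular to macrophage genes, since the fibroblast marker Pi16 had r = 0.962. Over all 13657 other tested genes the median r was -0.06, and 415 genes exceeded 0.8.

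**Figure D5:**
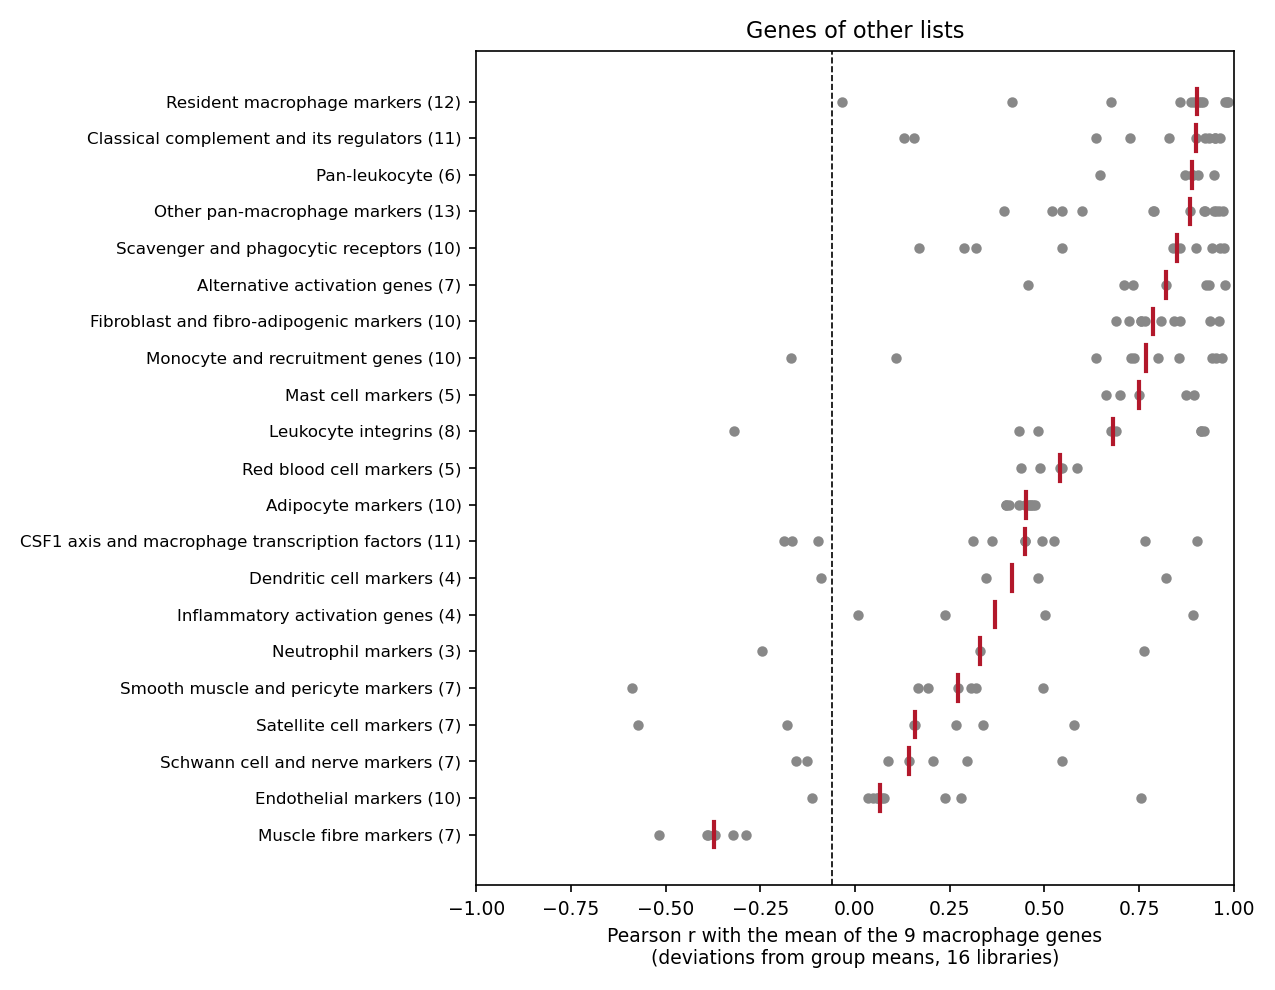
Pearson's r of each listed gene with the mean of the 9 members over 16 libraries (deviations from group means of log2 CPM), 1 row per gene list, with the number of tested genes, a red mark at the list's median and a dashed line at the median of all tested genes. The medians are 0.902 for resident macrophage, 0.900 for complement, 0.891 for pan-leukocyte and 0.884 for other macrophage genes, 0.787 for fibroblast, 0.751 for mast cell and 0.682 for leukocyte integrin genes, and 0.449 for the CSF1 axis and macrophage transcription factors. Adipocyte genes have 0.452, endothelial genes 0.0658 and muscle fibre genes -0.372.

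Other genes of macrophage biology were set beside the members by whole lists, and the called genes with the smallest adjusted p in each list are named. In the averaged contrast, 1 of 13 other macrophage markers passed, in the lower direction, with a list median of -0.43. This was Mpeg1, which encodes perforin-2 (3.41 ± 1.29 CPM in Tg, 5.84 ± 2.37 CPM in WT, SD, n = 8 each; log2 fold change -0.82, edgeR adjusted p = 0.0271), and the call was lost in 6 of 16 fits that left out 1 library (adjusted p = 0.0516 to 0.0591) and with total-count scaling (-0.75, adjusted p = 0.0615). Those 6 fits were the ones without Tg females 1 and 3, WT females 2 and 3, Tg male 1 or WT male 1. Without the 3 adipocyte-richest libraries Mpeg1 had -0.56 (adjusted p = 0.161). Of 12 resident macrophage markers, Cbr2, a carbonyl reductase, fell (17.8 ± 11.9 CPM in Tg, 28.3 ± 14.3 CPM in WT, SD, n = 8 each; -0.75, edgeR adjusted p = 0.000619), and the list median was -0.38. Cbr2 stood at 6.70 to 9.18 CPM in Tg females, against 13.8 to 16.9 CPM in WT females. In males it stood at 16.6 to 38.7 CPM in Tg, against 35.3 to 47.7 CPM in WT. Of 12 genes of the CSF1 axis and macrophage transcription factors, Runx1 rose (4.78 ± 0.837 CPM in Tg, 2.39 ± 0.83 CPM in WT, SD, n = 8 each; 0.995, edgeR adjusted p = 0.00074), and the median was -0.15. Runx1 encodes a factor of blood cell development that many other cells also express.

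Among 10 tested genes of 14 for monocytes and recruitment, Ccr2, the receptor for the chemokine CCL2, fell (2.35 ± 0.836 CPM in Tg, 4.71 ± 2.71 CPM in WT, SD, n = 8 each; log2 fold change -0.97, edgeR adjusted p = 0.0211), with a list median of -0.70. Without the 3 adipocyte-richest libraries Ccr2 did not pass (-1.01, adjusted p = 0.0593). Only 4 of 9 inflammatory activation genes were tested, and Cxcl10, an interferon-induced chemokine, rose (1.17 ± 0.607 CPM in Tg, 0.380 ± 0.275 CPM in WT, SD, n = 8 each; 1.56, edgeR adjusted p = 0.00978). Cxcl10 rested on 2 to 21 counts in each WT library and 10 to 47 counts in each Tg library. None of 7 tested alternative activation genes passed, and Retnla, the most abundant, had -0.52 (adjusted p = 0.443). None of 10 tested scavenger and phagocytic receptors passed, and Cd36, also an adipocyte and endothelial gene, had -0.05 (adjusted p = 0.904); without the 3 adipocyte-richest libraries it had 0.54 (adjusted p = 0.00919).

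Of 14 complement genes and regulators, the C1q chains among them, Cd55, which protects cells from complement, fell (53.9 ± 5.58 CPM in Tg, 70.1 ± 15.3 CPM in WT, SD, n = 8 each; -0.37, edgeR adjusted p = 0.00386). Of 9 leukocyte integrins, Itgam among them, Itga4, the alpha-4 chain, fell (23.6 ± 5.4 CPM in Tg, 41.9 ± 15.2 CPM in WT, SD, n = 8 each; -0.82, edgeR adjusted p = 0.00181). Across libraries Itga4 had r = -0.320 with the mean of the members. Other called genes that followed the members loosely were Cxcl10 (r = 0.00915), Cd55 (0.156), Cbr2 (0.415) and Runx1 (0.450). Mpeg1 (0.790), Ccr2 (0.799) and Ptprc (0.906) followed them more closely. Of 6 pan-leukocyte genes, Ptprc, which encodes CD45, fell (2.88 ± 1.11 CPM in Tg, 4.70 ± 1.85 CPM in WT, SD, n = 8 each; -0.72, edgeR adjusted p = 0.0422), a call lost in 12 of 16 fits that left out 1 library (adjusted p = 0.0514 to 0.0913), with total-count scaling (adjusted p = 0.0959), without the count filter (0.0584), in an additive model (0.0656), in limma-voom (0.0524) and without the 3 adipocyte-richest libraries (-0.68, adjusted p = 0.124). Each of these shares is below the 30.4% of all tested genes that passed.

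Within females, more genes of these lists were called lower in Tg. They were 4 of 10 monocyte genes (median -1.58), 2 of 7 alternative activation genes (-0.74), 3 of 13 other macrophage markers (-0.93), 2 of 9 leukocyte integrins (-0.89) and 3 of 14 complement genes (-0.89), shares above the 17.7% of all tested genes. Shares below it were 1 of 6 pan-leukocyte genes (-0.80), 1 of 10 scavenger receptors (-0.63) and 1 of 12 resident macrophage markers (-1.04), and of the CSF1 axis list 1 of 12 was higher (-0.49). None of 4 inflammatory activation genes passed (0.66). Within males, 1 of 12 resident macrophage markers and 1 of 9 integrins were lower and 1 of 12 genes of the CSF1 axis list was higher, none passed in the remaining lists, and the medians were 0.03 to 0.48, against 18.2% of all tested genes called. Among the genes named, Mpeg1, Ccr2, Cd55 and Ptprc passed in females (edgeR adjusted p = 0.0216, 0.0228, 0.00148 and 0.0303). In males they did not (edgeR adjusted p = 0.696, 0.56, 0.771 and 0.762). Runx1 passed in males (edgeR adjusted p = 0.00443) and not in females (0.0509). Cbr2 and Itga4 passed in both sexes, and Cxcl10 in neither. Passing in 1 sex only is not a test of a difference between the sexes. Whether the list counts differ between the sexes was not tested.

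Markers of other cells were read in the same libraries. Adipocyte markers summed to 718 to 3230 CPM in Tg and 656 to 6740 CPM in WT libraries, with 6736 in WT female 1, 6088 in WT female 2 and 6701 in WT male 1, and none of 10 passed (median -0.87; Car3, the most abundant, -0.13, adjusted p = 0.828). Car3 alone stood at 541 to 2560 CPM in Tg and 481 to 3840 CPM in WT libraries, a large part of these sums. How much of the Car3 RNA came from adipocytes was not tested. The mean log2 CPM of the 10 markers was also highest in WT female 1 (7.77), WT female 2 (7.97) and WT male 1 (7.95). Fibroblast markers summed to 561 to 1730 CPM in Tg and 750 to 1790 CPM in WT libraries, and none of 10 passed (median -0.31; Dcn -0.30, adjusted p = 0.270). The 10 endothelial markers summed to 321 to 390 CPM in Tg and 274 to 413 CPM in WT libraries, and none passed (Cdh5 0.12, adjusted p = 0.331; without the 3 adipocyte-richest libraries 0.30, adjusted p = 0.00157). Without those 3 libraries, 0 of 9 members were called averaged over the sexes (29.8% of tested genes), in females (15.6%) or in males (17.9%). With the adipocyte covariate, 0 of 9 were called averaged over the sexes (33.6% of tested genes) or in males (20.2%), as in females above. The part of fibroblasts and endothelial cells in the member levels was not tested.

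Single markers of these cells were correlated with the members, as 36 relations adjusted together. Ptprc correlated with all 9 members (r = 0.732 to 0.929, rho = 0.685 to 0.932, permutation adjusted p for r = 0.00135 to 0.0113). With Cd68 it did not pass without the 2 farthest libraries (r = 0.497, adjusted p = 0.114) or the 3 adipocyte-richest (r = 0.722, adjusted p = 0.110). Pdgfra, a receptor of fibro-adipogenic cells, passed with 8 of 9 members (r = 0.762 to 0.936), all but Cd68 (r = 0.601, permutation adjusted p = 0.0763). Adipoq, the adipocyte hormone adiponectin, passed with Cd68 alone (r = 0.673, permutation adjusted p = 0.00836; the others had r = 0.248 to 0.558). The Cd68 relation did not pass without removal of group means (r = 0.522, adjusted p = 0.0720). Adipoq also passed with C1qc without the 2 farthest libraries (r = 0.683, adjusted p = 0.0340) and with Cd163 without the 3 adipocyte-richest (r = 0.613, adjusted p = 0.0328). Pecam1, an endothelial adhesion molecule, passed with none (r = -0.146 to 0.312; no relation had an unadjusted p under 0.05).

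The remaining lists are given by their counts in the averaged contrast, in which 30.4% of all tested genes passed; the shares of neutrophil and muscle fibre genes were above this and the others below. Lymphocyte markers could not be tested, since no marker exceeded 12 counts in a library and the 10 summed to 0.799 to 1.71 CPM in Tg and 0.607 to 1.98 CPM in WT libraries. Of 3 tested neutrophil markers, S100a8, a calcium-binding protein of neutrophils and monocytes, rose (0.266 to 1.33 CPM in Tg, 0 to 0.312 CPM in WT; 2.16, edgeR adjusted p = 0.000413). S100a8 passed in females (3.455, edgeR adjusted p = 0.00052) and not in males (0.87, edgeR adjusted p = 0.271). Its level rested on 0 to 7 counts in each WT library and 6 to 38 counts in each Tg library. None of 4 tested dendritic cell markers (Zbtb46 0.17) and none of 5 tested mast cell markers (Mcpt4 0.15) passed. Of 7 smooth muscle and pericyte markers Des, which muscle fibres also express, rose (0.30), and of 7 satellite cell markers Cdh15 rose (0.34; 0.26 with adjusted p = 0.141 without the 3 adipocyte-richest libraries) and Chodl fell (-1.07). None of 7 Schwann cell markers passed (Pmp22 -0.08), and 1 of 5 tested red blood cell genes rose (Hba-a1 0.38). The Hba-a1 call was lost in 12 of 16 fits that left out 1 library (edgeR adjusted p = 0.0624 to 0.101). It was also lost in edgeR with relative log expression (RLE) scaling (adjusted p = 0.0565) and without the count filter (0.0589). The additive model (0.0584) and the fit without the 3 adipocyte-richest libraries (0.112) lost it too. Of 7 muscle fibre genes Myh1 rose (1.05) while Myh4 (-0.53) and Tnnt3 (-0.33) fell.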

How the data were processed

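Poly(A) RNA of quadriceps was sequenced as 16 stranded paired-end libraries on an Illumina NextSeq 500, per the labels. The values deposited by the authors have no stated unit and were taken as estimated counts (expected counts) per gene symbol: none is below 0, some have fractions, and library totals differ. Per the submitters' processing notes the tools included TopHat2, Bowtie2, bcl2fastq and cutadapt 1.2.1, and the build was mm10; the counting program is not given in the sources used here.

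Counts were rounded (no value moved by more than 0.5). The Myh4 counts (1160000 to 2760000) were already in a coarser rounded form, so library totals are less exact than their digits. Genes passing edgeR's filterByExpr (minimum count 10, minimum total 15) were fitted with TMM scaling, 1 mean per group over 16 libraries and robust quasi-likelihood dispersion (R 4.3.3, edgeR 4.0.16), with two-sided F tests and Benjamini-Hochberg adjustment; standard errors are the log2 fold change divided by the square root of F. Correlations used log2 CPM with a prior count of 1 (Python 3.11.15, numpy 2.4.6, scipy 1.17.1). The fit was tested on simulated data. Alternatives were DESeq2 1.42.0, limma 3.58.1 (voom), other scalings and filters, an additive model, an adipocyte covariate and each library left out.

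The members and the gene lists were chosen with earlier results of these data known. Named genes are the members, up to 3 called genes per list with the smallest adjusted p in the averaged contrast, otherwise the most abundant tested gene, and the 10 genes most like the members. Annotation is GENCODE M21, with promoters from RefSeq. Among 24 pairs of libraries within groups, the median chi-square over genes was at least 1.22, where 0.455 is the value for 1 library read again, so all counted as separate. Depth was 17435895 to 30680324 counts per library, and limits from counts cover counting error only.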

Additional observations from a re-analysis of the deposited data

Results flagged for a closer look

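In the Tg females, Cd68 stood at 4.20 CPM in Tg female 4 and at 1.60 to 2.04 CPM in the other 3, a gap large enough for the highest library of a group of 4 to be set apart by Dixon's test. In the Tg males, C1qa stood at 27.0 CPM in Tg male 3 and at 9.18 to 11.8 CPM in the other 3, which was set apart in the same way. These were 2 of 36 combinations of member and group examined, and chance sets apart about 1 in 20.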

How the results depend on the processing

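No paired analysis was possible because replicates were numbered in accession order and no label links a Tg mouse to a WT mouse. Members called lower in Tg females were 0 in edgeR and 5 in DESeq2, and 0 to 6 with single libraries left out; averaged over the sexes the count was 0 to 2 with single libraries left out, and in males and for the difference between the sexes it was 0 in every alternative. Of 1188 member fold changes recomputed, 1129 kept their direction and side of the threshold, 16 passed newly and 43 changed sign. The sign changes in males were with total counts for Csf1r (0.099), Cd163 (0.009) and Lyz2 (0.004), with an adipocyte covariate for C1qa (-0.062), C1qc (-0.054) and Itgam (-0.046), with limma-voom for C1qa (-0.01) and Itgam (-0.165), and for Itgam without the 3 adipocyte-richest libraries (-0.052), a setting chosen after seeing the data. Leave-one-out log2 fold changes in males ranged from -0.292 to 0.152 for Csf1r, -0.259 to 0.353 for Mrc1, -0.347 to 0.163 for Cd163, -0.383 to 0.248 for C1qa, -0.159 to 0.410 for C1qb, -0.256 to 0.228 for C1qc, -0.436 to 0.051 for Lyz2 and -0.572 to 0.326 for Itgam. Averaged over the sexes they ranged from -0.043 to 0.243 for Cd68, -0.152 to 0.230 for Cd36, -0.264 to 0.337 for Car3 and -0.157 to 0.095 for Pmp22. Between males and females they ranged from -0.154 to 0.221 for Mrc1, -0.023 to 0.301 for Cd163, -0.079 to 0.271 for C1qa, -0.006 to 0.298 for C1qb and -0.072 to 0.398 for Itgam. Cd36 and Car3 had 0.136 each with the covariate, 0.080 and 0.045 in limma-voom, and 0.539 and 0.478 without the 3 adipocyte-richest libraries, where Pmp22 had 0.155; the cause was not tested. Of 438 correlations recomputed, 413 kept direction and call. Those that changed sign all involved Pecam1: with Itgam (0.0315) without removing group means, with Csf1r (-0.0138) under RLE scaling, with Csf1r (-0.0486) and Lyz2 (-0.0332) without the 2 farthest libraries, with Csf1r (-0.00121) without Tg female 1, and, without the 3 adipocyte-richest libraries, with Cd68 (-0.0178), Csf1r (-0.228), C1qa (-0.279), C1qb (-0.223), C1qc (-0.203) and Lyz2 (-0.248). The number of all genes called for the difference between the sexes, 1 in edgeR, was 84 in DESeq2, 0 with upper-quartile scaling, 11 with total counts, 8 with no filter, 14 with the adipocyte covariate, 13 without the 3 adipocyte-richest libraries and 0 to 23 with single libraries left out, and the count for male against female, 605, was 956 with the adipocyte covariate. Of all genes called across the sexes in edgeR, 56.4% were higher with TMM, 50.8% with RLE scaling and 70.9% with total counts.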
